A study of Mus musculus with 6 samples.

Results

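Mitochondrial ribosomal proteins are the protein subunits of the ribosome that works inside mitochondria. They were taken as the rows of the deposited expression table whose gene symbol is Mrpl or Mrps followed by a number and at most 1 letter, with an FPKM (a fragment count divided by transcript length and by the library's mapped fragments) of 1 or more in at least 3 libraries. All 78 rows with such a symbol met that level, out of 21515 genes in the table and 9830 that passed the same filter and were tested. RNA was sequenced from C57BL/6 mouse marrow cells made immortal by NUP98-NSD1, a fusion protein of acute leukaemia, together with the activated RAS protein NRASG12D. Both groups carried these oncogenes, received Cas9 from the lentiviral vector L40C-CRISPR.EFS.dTomato, and were kept for 48 hours with 15% fetal bovine serum and 3 cytokines, human interleukin-6 (10 ng/mL), murine interleukin-3 (6 ng/mL) and stem cell factor, also murine (20 ng/mL). The knockout libraries (replicates 1, 4 and 5) carried the T44 guide RNA against Clec12a, an inhibitory lectin receptor of myeloid cells, and the control libraries (replicates 6, 8 and 9) carried a guide against lacZ and were wild type for Clec12a. Cells were sorted singly before they were expanded, and nothing states that libraries of 1 group came from separate cultures. The spread behind each p-value is that between these 6 libraries. It may be technical or lie between lines grown from single cells, which cannot be told apart here.

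The mitochondrial ribosome translates the few mRNAs encoded by mitochondrial DNA, which specify core subunits of the respiratory chain and ATP synthase. Its rRNAs come from mitochondrial DNA, whereas its proteins are encoded in the nucleus, made in the cytosol and imported. Some of these proteins descend from bacterial ribosomal proteins and others are found only in mitochondria. In the mammalian structure, the products of Mrps18a and Mrps30 sit in the large subunit despite their names, and both were counted there. Of the 78 genes, 51 encode large subunit proteins and 26 small subunit proteins. Mrps36 was assigned to neither, since its product is now known as a subunit of the oxoglutarate dehydrogenase complex.

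Total FPKM per library ran from 590211 to 699113 in knockout and from 534440 to 554534 in control libraries, and the estimated depth from 33700000 to 61000000 fragments, so totals and group went together. All 8 myeloid markers reached 1 FPKM in 1 or more libraries, with a summed level from 2367 to 5128 FPKM in knockout and from 1305 to 3698 in control libraries. Singly, 3 of them were higher and 5 lower in knockout cells (62.5% lower, against 54.0% of all genes tested). Their median log2 fold change was -0.39, with a range from -5.66 to 0.98, and the lowest was also the lowest of all genes tested. No myeloid marker passed limma (lowest adjusted p = 0.0763). None of 5 B cell and none of 5 stromal markers reached 1 FPKM, and 1 of 6 erythroid, 1 of 5 T cell, 1 of 5 mast cell and basophil and 2 of 4 megakaryocyte markers did. Clec12a was at 170, 129 and 94.5 FPKM in knockout replicates 1, 4 and 5 and at 157, 246 and 280 FPKM in control replicates 6, 8 and 9, so the groups overlapped (log2 fold change -0.79, SE 0.29, limma adjusted p = 0.130). A gene-level FPKM need not fall after a small edit, so this level does not check the labels.

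The sequences just before the transcription start are shown for 3 of the genes with the largest higher values in knockout cells (Mrpl52, Mrpl58 and Mrps16) and for 1 of the 3 with the largest lower values (Mrps2). Mrpl49 and Mrpl50, the other two at the lower end, have an annotated exon directly before the start and are not shown. The sequences are from RefSeq (GRCm38.p6), 250 bases each on the gene's strand, and capitals mark a match to the letters CCGGAAG, the core bound by ETS factors such as GABP, on either strand. Their positions are chr14:54426659-54426908 (plus strand), chr11:115403502-115403751 (plus), chr14:20393635-20393884 (minus) and chr2:28467816-28468065 (plus).
Mrpl52: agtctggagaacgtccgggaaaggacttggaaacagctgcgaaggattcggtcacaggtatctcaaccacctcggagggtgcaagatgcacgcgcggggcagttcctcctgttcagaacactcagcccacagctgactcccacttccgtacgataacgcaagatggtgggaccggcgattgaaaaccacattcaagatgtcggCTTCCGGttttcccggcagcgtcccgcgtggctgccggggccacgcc
Mrpl58: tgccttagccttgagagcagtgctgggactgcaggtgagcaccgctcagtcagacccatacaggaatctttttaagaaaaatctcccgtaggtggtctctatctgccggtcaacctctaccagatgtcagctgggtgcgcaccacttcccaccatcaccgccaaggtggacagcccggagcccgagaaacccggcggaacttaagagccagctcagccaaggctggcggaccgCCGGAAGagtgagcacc
Mrps16: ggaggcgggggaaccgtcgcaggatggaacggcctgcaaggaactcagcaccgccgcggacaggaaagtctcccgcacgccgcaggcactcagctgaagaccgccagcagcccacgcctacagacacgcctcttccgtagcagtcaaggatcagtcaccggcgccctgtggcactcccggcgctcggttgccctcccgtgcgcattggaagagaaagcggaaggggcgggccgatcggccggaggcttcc
Mrps2: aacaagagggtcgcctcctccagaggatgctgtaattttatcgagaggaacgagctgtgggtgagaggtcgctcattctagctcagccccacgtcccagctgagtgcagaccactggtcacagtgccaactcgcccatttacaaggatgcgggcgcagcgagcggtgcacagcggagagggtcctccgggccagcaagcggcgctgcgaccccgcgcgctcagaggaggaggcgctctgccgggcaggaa

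The matches in Mrpl52 and Mrpl58 lie close to the start, and neither Mrps16 nor Mrps2 holds one in these 250 bases. RefSeq gave a promoter for 69 members. Over the 300 bases around the start, with both strands searched and overlaps between motifs allowed, CCGGAAG was present in 24 of 69 members (34.8%) and in 21.4% of all 7914 promoters of tested genes. The core of NRF1, a regulator of nuclear genes for mitochondria, was searched as GCGCANGCG and was present in 16 of 69 members (23.2%) and 15.9% of all promoters. The YY1 core AAGATGGCG was present in 8 members (11.6%) against 3.80% of all promoters, and the E-box CACGTG in 5 members (7.25%) against 10.8%. TATAAA was present in 4 members (5.80%) against 6.43%. Median log2 fold changes of members with and without a match were 0.39 and 0.23 for CCGGAAG, 0.26 and 0.30 for the NRF1 core, and 0.30 and 0.28 for the YY1 core. A match describes letters in a window and not a bound site.

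In knockout cells 1 mitochondrial ribosomal protein gene, Mrpl52, rose, none fell and 77 did not pass the test. Most had higher values nonetheless: 65 of 78 were higher (46.0% of all genes tested were) and 13 lower, with a median log2 fold change of 0.30 against -0.06 over all genes tested, though a per-library correction for GC content and transcript length brought it to -0.02. With libraries scaled to equal totals the medians were 0.10 and -0.24. Mrpl52 was 2.43 times as high in knockout as in control cells. Mrpl49, Mrpl50 and Mrps2 went the other way and were lower in each knockout library than in any control. The test was limma on log2(FPKM + 1) over all 9830 genes with Benjamini-Hochberg adjustment, and "rose" or "fell" means an adjusted p under 0.05. Over all genes 1.38% rose and 0.519% fell, and 1.90% changed in all, so the share of members that rose (1 of 78) was near that of genes in general.

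Mrpl52 encodes a large subunit protein with no bacterial counterpart (chromosome 14, 54426909 to 54429756, plus strand). It was at 40.3, 67.3 and 48.4 FPKM in knockout replicates 1, 4 and 5 and at 20.7, 19.2 and 24.1 FPKM in control replicates 6, 8 and 9. Each knockout library was above each control library, with knockout replicate 4 the highest. The means were 52.0 ± 13.8 and 21.3 ± 2.52 FPKM (SD, n = 3 each), the log2 fold change was 1.22 (SE 0.23) and the limma adjusted p was 0.0440. By exact permutation (two-sided) p was 0.1, the smallest that 3 against 3 libraries allow. Mrpl52 has the shortest annotated transcript of the 78 genes (463 bases). With transcript length and GC content corrected for in each library, its log2 fold change was 0.53 (SE 0.17, adjusted p = 0.120), and it did not pass when any 1 library was left out (adjusted p from 0.0536 to 0.197).

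**Figure D1:**
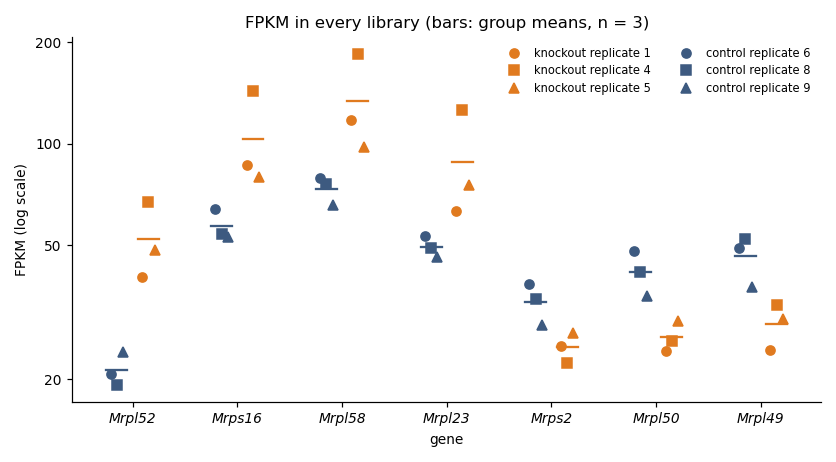
FPKM (log scale) of the called gene, 3 other members with the largest higher values and the 3 with the largest lower values, with 1 point for each of the 6 libraries and bars at the group means (n = 3). Knockout points lie above all control points for Mrpl52, Mrps16, Mrpl58 and Mrpl23 and below them for Mrps2, Mrpl50 and Mrpl49.

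The next largest higher values belonged to 5 genes that did not pass. Mrps16, the S16 homolog of the small subunit, was at 86.6, 144 and 79.8 FPKM in knockout replicates 1, 4 and 5 and at 63.8, 53.8 and 52.7 FPKM in control replicates 6, 8 and 9 (log2 fold change 0.81, SE 0.25, limma adjusted p = 0.0969). Mrpl58, a peptidyl-tRNA hydrolase of the large subunit that frees stalled mitochondrial ribosomes, was at 118, 185 and 97.9 FPKM against 79.2, 75.7 and 65.8 FPKM (0.80, SE 0.25, adjusted p = 0.0991). In both, the groups did not overlap and knockout replicate 4 stood above the other two. Mrpl23 and Mrpl17, large subunit proteins with bacterial counterparts, had log2 fold changes of 0.76 each (SE 0.26, adjusted p = 0.116 each). Mrpl57, a small protein of the large subunit, had 0.71 (SE 0.27, adjusted p = 0.141). Values for these 3 genes did not overlap between groups either, and all were highest in knockout replicate 4. Without that library the log2 fold changes were 0.55 for Mrps16, 0.54 for Mrpl58, 0.48 for Mrpl23, 0.52 for Mrpl17 and 0.40 for Mrpl57. After the length and GC correction the log2 fold changes were 0.85 for Mrps16, 0.83 for Mrpl58, 1.09 for Mrpl17, 0.89 for Mrpl57 and 0.25 for Mrpl23, with adjusted p from 0.0959 to 0.364. For Mrpl17 the correction used an annotated transcript of 7300 bases, which may not be the one these cells use.

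At the lower end, Mrpl49, a large subunit protein found only in mitochondria (chromosome 19, 6053622 to 6057785, minus strand), was at 24.4, 33.1 and 30.3 FPKM in knockout replicates 1, 4 and 5. Its control values were 49.0, 52.2 and 37.6 FPKM (log2 fold change -0.64, SE 0.21, limma adjusted p = 0.107). Mrpl50, also a large subunit protein found only in mitochondria (chromosome 4, 49512596 to 49521093, minus strand), was at 24.2, 25.9 and 29.7 FPKM against 48.2, 41.7 and 35.2 FPKM (-0.62, SE 0.19, adjusted p = 0.101). Mrps2, the S2 homolog of the small subunit, was at 25.03, 22.3 and 27.4 FPKM against 38.2, 34.7 and 29.0 FPKM (-0.43, SE 0.19, adjusted p = 0.186). In these 3 genes knockout replicate 4 did not stand apart from the other knockout libraries, in contrast to most members. Without that library the log2 fold changes were -0.73, -0.61 and -0.35, and with the length and GC correction -0.83, -0.61 and -0.52 (adjusted p = 0.0641, 0.0962 and 0.130). Mrpl37 and Mrpl41, large subunit proteins found only in mitochondria, had -0.34 (adjusted p = 0.365) and -0.21 (adjusted p = 0.505) with overlapping groups. Mrpl41 reached -0.73 once length and GC content were corrected for (adjusted p = 0.0589), the lowest adjusted p of any member under it. Mrpl3, the L3 homolog, had -0.21 with groups that did not overlap, from 58.0 to 64.3 FPKM in knockout and from 65.1 to 78.5 FPKM in control libraries (adjusted p = 0.431).

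**Figure D2:**
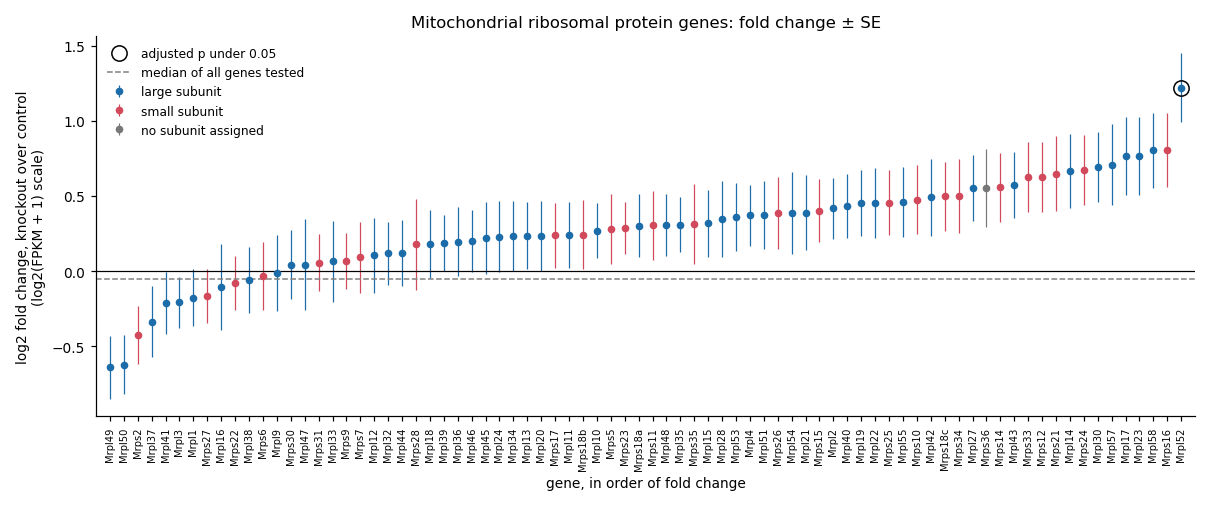
Log2 fold change ± SE (log2(FPKM + 1) scale, knockout over control, 3 libraries each) of the 78 genes in order, coloured by ribosomal subunit, with the median of all genes tested as a dashed line. Mrpl52 at 1.22 is the 1 circled gene, 13 genes lie below 0, and the colours are mixed along the order.

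The groups did not overlap for 32 members: 28 were higher and 4 lower in knockout cells. Over all genes tested 14.5% were higher and 21.8% lower without overlap. At an unadjusted p under 0.05 there were 15 members higher and 2 lower, against 12.0% and 15.9% of all genes. The 53 members not described singly were 48 higher and 5 lower, with log2 fold changes from -0.17 to 0.69 and adjusted p from 0.113 to 0.975.

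The subunits had close medians. The median log2 fold change was 0.27 for 51 large subunit genes, of which 42 were higher, and 0.31 for 26 small subunit genes, of which 22 were higher. It was 0.28 for 47 genes with bacterial homologs and 0.31 for 29 found only in mitochondria. Summed over the large subunit, the level was 5753 ± 1471 FPKM in knockout and 4431 ± 409 FPKM in control cells (SD, n = 3 each), and over the small subunit 2821 ± 758 and 2038 ± 117 FPKM. The large sum was 2.05, 2.02 and 2.07 times the small sum in knockout replicates 1, 4 and 5. In the controls it was 2.25, 2.17 and 2.09 times as high, above each knockout library.

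Members were highest in knockout replicate 4. The 78 genes summed to 7542, 11236 and 7152 FPKM in knockout replicates 1, 4 and 5 and to 7049, 6509 and 5984 FPKM in control replicates 6, 8 and 9. As a share of all FPKM this was 1.25%, 1.61% and 1.21% against 1.32%, 1.17% and 1.09%, and the groups overlapped. Of the 78 genes, 66 had their highest value in knockout replicate 4 and 44 their lowest in control replicate 9. Over all genes tested, 28.2% were highest in knockout replicate 4 and 15.8% lowest in control replicate 9. Relative to each gene's mean, the median member stood at 0.00, 0.55 and -0.04 (log2) in knockout replicates 1, 4 and 5 and at -0.02, -0.14 and -0.28 in control replicates 6, 8 and 9. Without knockout replicate 4 the median log2 fold change was 0.11, with 54 members higher, none past the threshold, and a median over all genes of -0.06.

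**Figure D3:**
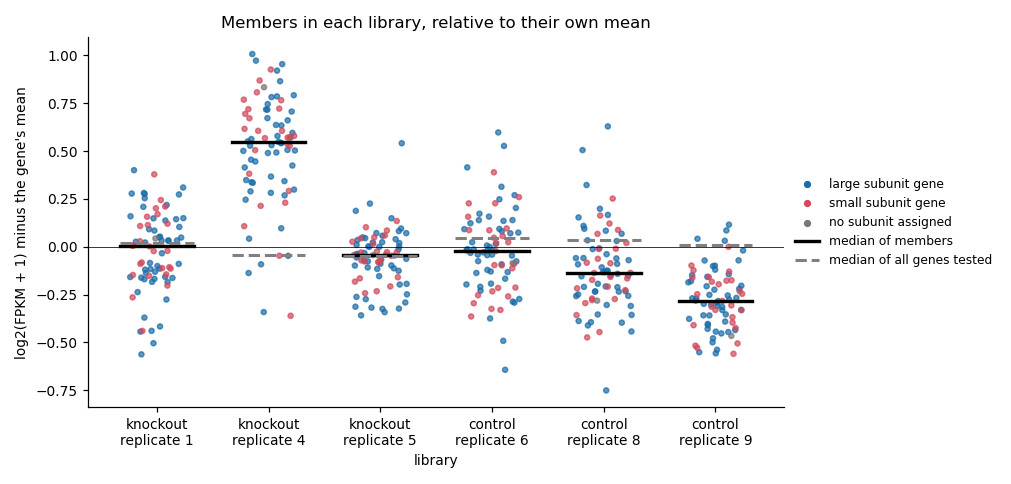
Log2(FPKM + 1) of each of the 78 genes minus that gene's mean over the 6 libraries, by library, with the median of the members (black) and of all genes tested (dashed grey). The members' median is 0.55 in knockout replicate 4, between -0.14 and 0.00 in knockout replicates 1 and 5 and control replicates 6 and 8, and -0.28 in control replicate 9.

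Fold changes in these libraries went with transcript length, and members have short transcripts. Their median length was 1302 bases against 3004 bases over all genes tested, taking the longest transcript of GENCODE's basic set, which may not be the one these cells use. Across 9820 genes, which are not independent replicates, Spearman's rho between log2 fold change and length was -0.42, and between the level relative to the gene's mean and length it was -0.06, -0.48 and -0.17 in knockout replicates 1, 4 and 5 and 0.30 to 0.34 in the controls. All genes were put into 4 bins of about equal size by length. In the bin of the shortest transcripts, up to 1906 bases, the median log2 fold change was 0.28 over all genes, and the 52 members in it had 0.30. From 1907 to 3004 bases all genes had -0.03 and 9 members 0.22, from 3005 to 4461 bases -0.22 and 12 members 0.27, and above that -0.31 and 5 members 0.45. From the shortest bin to the longest, 43, 7, 10 and 5 of these members were higher in knockout cells. Of all genes in each bin, 75.4%, 47.6%, 34.2% and 26.7% were. After each library was corrected for length and GC content, the members' median was -0.02 against -0.08 over all genes, 38 were higher and 40 lower, and none passed limma (9 higher and 10 lower at an unadjusted p under 0.05), where 1.03% of all genes rose and 0.397% fell. The median member then stood at -0.01, 0.07 and -0.12 in knockout replicates 1, 4 and 5 and at 0.14, -0.00 and -0.10 in control replicates 6, 8 and 9. Under the correction the 12 and 5 members in the bins above 3004 bases were all higher, from 0.011 for Mrpl3 to 1.09 for Mrpl17. Members that were lower under it all had annotated transcripts of at most 3004 bases. The corrected median of -0.02 thus joins members that differed by annotated length. The part of transcript length, GC content or RNA quality in the higher values was not tested beyond this correction.

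**Figure D4:**
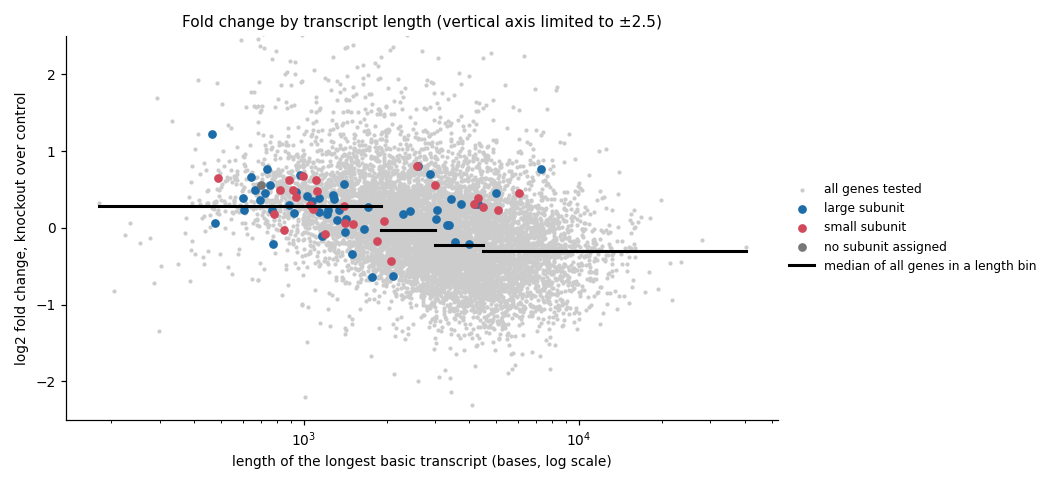
Log2 fold change (knockout over control) against transcript length in bases (log scale) for all genes tested (grey) and the 78 members (coloured by subunit), with bars at the median of all genes in each of 4 length bins. The bars fall from 0.28 in the shortest to -0.31 in the longest bin, and 52 members lie in the shortest bin.

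Levels differed widely between the genes although their products are built into 1 particle. The mean over the 6 libraries, a level per length, ranged 24.7-fold with a median of 73.7 FPKM (quartiles 49.5 and 110 FPKM), and no member was at 0 in any library. Mrpl17 was the highest, at 553, 831 and 456 FPKM in knockout replicates 1, 4 and 5 and at 397, 346 and 311 FPKM in control replicates 6, 8 and 9. It was followed by Mrps33 (302 FPKM, mean of 6 libraries), Mrpl42 (287 FPKM), Mrpl19 (253 FPKM) and Mrpl33 (248 FPKM), the last the L33 homolog. Ranges of these 4 genes overlapped one another, so their order is within their spread, and 36.0% of the exon bases of Mrpl19 are shared with Gcfc2 on the opposite strand. Their log2 fold changes were 0.62 for Mrps33, 0.49 for Mrpl42, 0.45 for Mrpl19 and 0.07 for Mrpl33 (adjusted p = 0.134, 0.239, 0.211 and 0.889).

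The lowest were Mrpl1, whose bacterial homolog forms a mobile stalk of the large subunit, at 16.9 to 20.1 FPKM in knockout and 18.5 to 22.5 FPKM in control libraries, and the small subunit gene Mrps31, at 18.6 to 23.0 and 18.0 to 20.0 FPKM. Mrps30 (23.1 FPKM, mean of 6 libraries), Mrpl47 (24.2 FPKM), the L29 homolog, and Mrpl39 (25.6 FPKM) came next. Each gene overlapped its neighbours in this order, while Mrpl1 (at most 22.5 FPKM) stayed below the lowest value of Mrpl39 (22.8 FPKM). All 5 had log2 fold changes between -0.18 and 0.19 with adjusted p from 0.521 to 0.937. Mrps31, Mrps22 and Mrpl3 varied least over the libraries (SD of log2 values 0.12, 0.14 and 0.15). Mrps22, a small subunit protein found only in mitochondria, had a log2 fold change of -0.08 (adjusted p = 0.791). Mrpl52, Mrpl58 and Mrps16 varied most (SD 0.71, 0.54 and 0.54).

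The 3 members of the Mrps18 family are homologs of the same bacterial protein, S18, and were all more abundant than the median member. Mrps18c was at 125, 210 and 131 FPKM in knockout replicates 1, 4 and 5 and at 103, 109 and 108 FPKM in control replicates 6, 8 and 9 (log2 fold change 0.50, SE 0.23, limma adjusted p = 0.192). Its groups did not overlap, but its log2 fold change was 0.26 without knockout replicate 4 and 0.09 after the length and GC correction. Mrps18a, the paralog of the large subunit, was at 101 to 158 FPKM in knockout and 92.4 to 106 FPKM in control libraries (0.30, SE 0.21, adjusted p = 0.361). Mrps18b was at 69.8 to 108 and 57.3 to 80.9 FPKM (0.24, SE 0.23, adjusted p = 0.498). Both overlapped between groups, and both were lower in knockout cells after the length and GC correction (-0.26 and -0.19).

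Members were paired with a protein-coding gene on the opposite strand whose start lay up to 1000 bases upstream or overlapped theirs slightly. The overlap was at most 197 bases among the pairs found, and starts that overlap further, as in Mrpl46 and Mrps11, were not counted. Of 23 members so paired, 22 had a tested neighbour. In these pairs 17 members and 6 neighbours were higher in knockout cells, and 9 of 22 pairs had the same sign. The median log2 fold change was 0.33 for the members and -0.35 for the neighbours, whose median transcript length was 2938 bases against 1209 bases for the members. Of the neighbours 27.3% were higher, against 46.0% of all genes. None of the 22 passed limma, and at an unadjusted p under 0.05 there were 1 higher (4.55%) and 6 lower (27.3%), against 12.0% and 15.9% of all genes. Mrpl57 and Ska3, a gene of chromosome segregation, start 49 bases apart and were named after their values were seen. Mrpl57 was at 111, 214 and 113 FPKM in knockout replicates 1, 4 and 5 and at 93.8, 84.7 and 76.5 FPKM in control replicates 6, 8 and 9, while Ska3 was at 13.9, 10.96 and 15.0 FPKM against 28.5, 28.5 and 18.9 FPKM (log2 fold change -0.87, adjusted p = 0.0818). In the pair of Mrpl49 and Fau, which encodes a cytosolic ribosomal protein and was also named after its values were seen, the member was the lower one and Fau was at 526, 1021 and 689 FPKM against 479, 580 and 499 FPKM (0.47, adjusted p = 0.282).

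Other genes that serve mitochondrial gene expression, import and protein quality were taken from 8 lists, of which 6 had a negative and 2 (import, and proteins of the same ribosome under other symbols) a positive median log2 fold change. None of the 113 tested genes passed limma in either direction. In all 43 were higher and 70 lower (61.9%, against 54.0% of all genes tested), with a median of -0.14. At an unadjusted p under 0.05 there were 4 higher (3.54%) and 15 lower (13.3%), against 12.0% and 15.9% of all genes, so the lower share was not above the general one. Of 5 proteins of the same ribosome filed under other symbols, 3 were higher, with a median log2 fold change of 0.13. Among them Aurkaip1 was at 229 ± 53.2 against 165 ± 21.7 FPKM (SD, n = 3 each, adjusted p = 0.215) and Chchd1 at 117 ± 54.6 against 111 ± 10.1 FPKM (adjusted p = 0.992). Of 12 translation factors, 4 were higher and 8 lower (median -0.18). The elongation factor gene Gfm1 was at 37.9, 22.7 and 42.6 FPKM in knockout replicates 1, 4 and 5 and at 64.1, 52.1 and 49.7 FPKM in control replicates 6, 8 and 9 (-0.71, SE 0.26, adjusted p = 0.128), without overlap. Tsfm, another elongation factor gene, was at 85.7 ± 11.3 against 68.8 ± 8.75 FPKM (adjusted p = 0.298).

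Assembly and rRNA modification factors had a median log2 fold change of -0.06 over 25 genes. Rbfa, which assists small subunit assembly, had 0.39 and Mpv17l2 0.42 (adjusted p = 0.255 and 0.294). Of 17 mitochondrial tRNA synthetases, 15 were lower (median -0.40). The exceptions included Lars2, the leucine enzyme, at 324, 679 and 333 FPKM against 265, 410 and 264 FPKM (0.45, adjusted p = 0.380), and Tars2 had -0.13 (adjusted p = 0.662). Of 14 genes for mitochondrial DNA expression, 11 were lower (median -0.34), while the small RNA-binding and DNA-binding proteins Slirp and Ssbp1 had 0.37 and 0.41 (adjusted p = 0.350 and 0.234). Among 8 tested regulators 6 were lower (median -0.33), with Myc at -0.37 and Nrf1 at -0.33 (adjusted p = 0.301 and 0.296).

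Of 22 import genes 17 were higher (median 0.10). Tomm6, a small subunit of the outer membrane channel, was at 467, 774 and 497 FPKM in knockout replicates 1, 4 and 5 and at 345, 348 and 311 FPKM in control replicates 6, 8 and 9 (0.75, SE 0.24, adjusted p = 0.105), and Timm13 had 0.43 (adjusted p = 0.307). Of 10 chaperone and protease genes 8 were lower (median -0.25), with Hspd1 at -0.50 and Hspa9 at -0.24 (adjusted p = 0.219 and 0.531). These medians were not tested against that of the members. Medians of the lists are without the length and GC correction, and the lists were not matched for transcript length. Over all genes log2 fold change went with length (Spearman's rho -0.42). The part of length in the list medians was not tested.

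Gene groups next to the mitochondrial ribosome in function are given for comparison, also without the length and GC correction. The 73 cytosolic ribosomal protein genes had a median log2 fold change of 0.33, with none past the threshold and 73 highest in knockout replicate 4. The 76 nuclear respiratory chain genes had a median of 0.36. The 1 that rose, Cox6a2, the muscle form of a cytochrome c oxidase subunit, was at 5.35, 9.37 and 3.30 FPKM in knockout replicates 1, 4 and 5 and at 0.0825, 0.144 and 0.375 FPKM in the controls (2.46, SE 0.32, limma adjusted p = 0.0167). Cox6a2 reached 1 FPKM in knockout libraries only, so it entered the test through the group where it was higher. The share that rose, 1 of 76, was near the 1.38% of all genes. Cox6a2 and mt-Nd4l (given next) lie outside the lists from which genes were to be named, and were named after their values were seen. The 13 mRNAs encoded by mitochondrial DNA, which the mitochondrial ribosome translates, were all lower, with a median of -0.63. Of all genes tested 54.0% were lower. Of the 13, mt-Nd4l, a complex I subunit, fell, from 129, 154 and 90.3 FPKM in control replicates 6, 8 and 9 to 58.1, 50.9 and 36.1 FPKM in knockout replicates 1, 4 and 5 (-1.34, SE 0.26, limma adjusted p = 0.0451). That was 1 of 13, against 0.519% of all genes. Relative to each gene's mean, the median of these mRNAs was -0.13, 0.11 and -0.99 in knockout replicates 1, 4 and 5 and 0.38, 0.51 and -0.02 in control replicates 6, 8 and 9. Knockout replicate 5 was the lowest for them, whereas the ribosomal protein genes were lowest in control replicate 9.

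**Figure D5:**
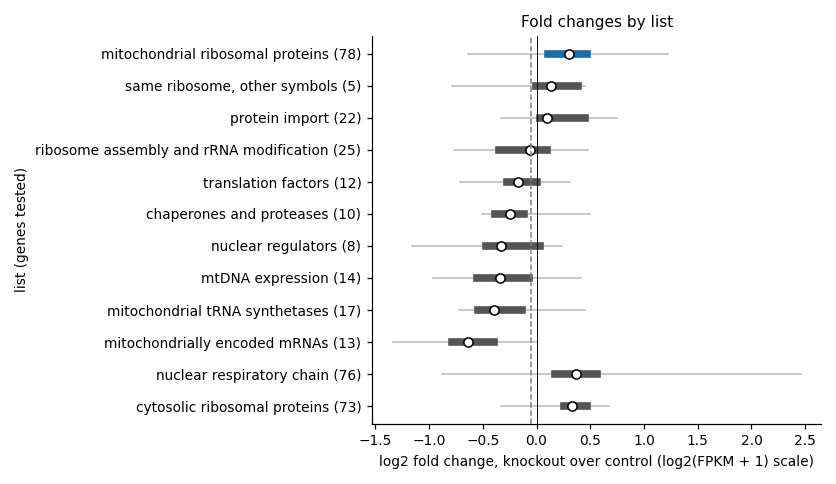
Median (open circle), quartiles (thick bar) and range (thin line) of log2 fold changes (log2(FPKM + 1) scale, knockout over control) for the members and 11 other lists, with the number of genes tested in brackets and the median of all genes tested as a dashed line. The members (0.30) lie near the nuclear respiratory chain (0.36) and cytosolic ribosomal proteins (0.33), and mitochondrially encoded mRNAs (-0.63) are the lowest. No value shown was corrected for transcript length or GC content.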

How the data were processed

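The authors deposited 1 table of FPKM by gene symbol for 6 libraries, and column names matched sample titles. The submitters' processing notes name STAR 2.5.2b, FastQC and the build mm10. Counting, annotation, strand use and filters are not given in the sources at hand, so exon overlap between genes (33 members share exon bases with another gene) and reads from 5 annotated pseudogenes named after members may affect levels.

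Genes that reached 1 FPKM in 3 or more libraries were tested on log2(FPKM + 1) with limma 3.58.1 in R 4.3.3 (intensity trend, two-sided, Benjamini-Hochberg over 9830 genes, threshold 0.05). Because these values are not counts, count models were not used. Fold changes on this scale understate those of low genes. Depth was estimated from 4153 genes with 1 transcript, where 62.9% to 69.9% of low values came within 0.1 of a whole number of fragments, so depths are approximate. Positions, lengths and GC content came from GENCODE M21 (GRCm38): 21414 symbols matched directly, 74 by synonym and 27 not. On simulated data (9830 genes) the test recovered 1.49% of 67 genes changed 1.5-fold, 31.3% of 67 changed 2-fold and 77.3% of 66 changed 4-fold. Changes were put into the more abundant genes only. Noise was drawn separately for each gene and library, so shifts shared by many genes of a library were not simulated.

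Members, lists and tests were chosen with earlier results of these data known. Genes named are Mrpl52, the 6 largest changes each way, the 5 highest and 5 lowest means, the 3 most and least variable, the Mrps18 family, and, of each of the 8 lists on mitochondrial gene expression, import and protein quality, genes past the threshold or else the 2 most abundant; other names are marked as such. Alternatives covered pseudocount, filter, scaling, length and GC correction (splines with 4 degrees of freedom), limma settings and each library left out. Figures used Python 3.11.15 and matplotlib 3.10.9.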

Additional observations from a re-analysis of the deposited data

How the results depend on the processing

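No paired analysis was possible because the groups share no replicate number. The number of genes changed over all 9830 was 187 (136 higher, 51 lower), and moved to 122 with a pseudocount of 0.01, to 23 without the filter, to 97 at a mean FPKM of at least 5, to 120 (71 higher, 49 lower) with equal totals and to 4154 (1886 higher, 2268 lower) with array weights. Leaving out 1 library gave from 20 (without knockout replicate 4) to 197. The 1 changed member, Mrpl52, became 0 without the filter, with equal totals, with the length and GC correction, and in each of the 6 fits that left out a library (0 to 0 members). With array weights 26 members passed, 21 higher and 5 lower, against 19.2% and 23.1% of all genes. The members' median of 0.30 ran from 0.11 to 0.40 when a library was left out and was 0.16 with array weights. It moved to -0.0202 with the length and GC correction and to -0.0011 when the length of the principal transcript was used, an alternative added after seeing the data that also gave 0 members. Leaving out the 6 members that share over 30% of exon bases with another gene, also added later, changed neither call.

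Among 25 named members, 9 changed sign under some setting, and none of the 9 passed the threshold under any of them. With equal totals Mrpl33 was at -0.14, Mrpl39 at -0.011, Mrpl47 at -0.15, Mrps30 at -0.15 and Mrps31 at -0.14. With quantile normalization Mrpl33 was at -0.18. With the length and GC correction Mrpl1 was at 0.098, Mrpl3 at 0.011, Mrpl33 at -0.45, Mrps18a at -0.26, Mrps18b at -0.19 and Mrps31 at -0.14. With principal transcripts these were 0.12, 0.029, -0.41, -0.24, -0.19 and -0.12. With array weights Mrpl33 was at -0.32, Mrpl47 at -0.39 and Mrps31 at -0.0695. With 1 library left out, Mrpl33 ran from -0.20 to 0.334, Mrpl47 from -0.2310 to 0.2625, Mrps30 from -0.10 to 0.2244 and Mrps31 from -0.0366 to 0.11. Mrpl33, Mrpl47 and Mrps31 turned lower without knockout replicate 4, Mrps30 without knockout replicate 1, and Mrpl47 and Mrps30 without control replicate 9. The cause was not tested. Depth was only estimated, and most changes under 2-fold were below what this design recovered in simulation.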

Other observations

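The 3 members on chromosome 14, Mrpl52, Mrps16 and Mrpl57, were among the 6 with the largest higher values, at log2 fold changes of 1.22, 0.81 and 0.71. They lie apart on the chromosome, starting at 54426909, 20389304 and 57826234. Over the 335 genes tested on chromosome 14 the median log2 fold change was -0.08, close to the -0.06 of all genes, and the median level relative to the gene's mean lay between -0.08 and 0.07 in every library. The pattern was noticed in these values and was not tested.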
